A study of Homo sapiens with 4 samples.

Results

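The genes described here encode subunits of eukaryotic translation initiation factor 3 (EIF3), measured by RNA sequencing in gastric cancer cells with and without estradiol. They are the rows of the deposited gene count table named EIF3A, EIF3B, EIF3C, EIF3CL, EIF3D, EIF3E, EIF3F, EIF3G, EIF3H and EIF3I, which are 10 of 58336 genes. EIF3C and EIF3CL are near-identical copies, so their summed count is given as well. The list was chosen by the measured difference between estradiol and control, in which EIF3C had been called, and by the family name. The values of that comparison are therefore given for the members as a description, with no test. The difference between the cell lines was not used in the choice and was tested. For EIF3C and the sum it is not free of the choice, since the low AGS control library enters both comparisons.

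EIF3 is the largest initiation factor. It binds the small ribosomal subunit, helps to recruit the initiator tRNA and the mRNA with its cap-binding factors, and keeps the ribosomal subunits apart before the start codon is found. EIF3A, EIF3C and EIF3E carry the PCI domain and EIF3F and EIF3H the MPN domain, and together with EIF3K, EIF3L and EIF3M they form the core of the complex. EIF3B, EIF3G and EIF3I form a module that is held to the core through EIF3A, and EIF3D sits at the edge, where it can bind the cap of some mRNAs.

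The exon in which the copies differ is shown because it holds the only coding difference between the transcripts compared here, EIF3C-201 and EIF3CL-201. EIF3C lies on chromosome 16 at 28688558 to 28735730 on the plus strand, and EIF3CL on the same chromosome at 28379579 to 28403879 on the minus strand (GRCh38). In GENCODE release 29 these transcripts have 21 exons each, of which 20 hold coding sequence, and 19 of these coding exons are identical between the copies. The coding sequences have 2742 and 2745 bases and differ by 3 bases, which are 1 extra GAG unit in exon 9 of EIF3CL. Capitals mark the run of GAG units, 4 in EIF3C and 5 in EIF3CL. Exon 9 of EIF3C is chr16:28723164-28723323 on the plus strand (160 bases), and that of EIF3CL is chr16:28391980-28392142 on the minus strand (163 bases), each written 5′ to 3′ in the sense of its gene.
EIF3C: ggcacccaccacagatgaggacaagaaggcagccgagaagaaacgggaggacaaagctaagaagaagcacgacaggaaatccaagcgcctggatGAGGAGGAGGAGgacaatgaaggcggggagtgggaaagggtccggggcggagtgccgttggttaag
EIF3CL: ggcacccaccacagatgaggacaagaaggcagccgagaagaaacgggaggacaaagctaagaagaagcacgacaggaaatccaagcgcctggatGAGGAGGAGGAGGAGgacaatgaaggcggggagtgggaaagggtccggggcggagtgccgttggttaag

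The handling of reads that fit several places was not given in the sources used here. For this reason the share of each gene's sequence that recurs in transcripts of other genes was measured. Of the 3087 different 31-base stretches in the transcripts of EIF3CL, 3040 (98.5%) also occur in EIF3C. Of the 7043 stretches of EIF3C, 48.4% occur in another gene, and 43.2% occur in EIF3CL. The annotated transcripts of EIF3C include some with retained introns, and its length in the deposited table is 6982 bases against 3091 for EIF3CL. In the other 8 members the shared stretches range from 0.302% in EIF3B to 16.3% in EIF3I. The division of reads between EIF3C and EIF3CL is therefore uncertain.

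The study has 4 libraries, 1 for each combination of line and treatment, and calls the controls nc. AGS and HGC-27 are established gastric cancer cell lines, both labelled wild type (WT), and the treated cells of each had 10 nM estradiol (E2), the main oestrogen, for 1 day. Total counts were 24597379 to 28734374 per library. The RNA is from bulk cultures, so a lower level per cell and fewer expressing cells cannot be told apart. Nothing in the labels says that libraries are independent cultures, so p-values describe these libraries alone. Those of edgeR, and its SEs, rest mostly on a spread pooled over genes. They can therefore understate the spread of a single gene. The 6 epithelial markers checked (EPCAM, CDH1, KRT8, KRT18, KRT19 and CLDN4) summed to 150510 and 169711 counts in AGS and to 2000 and 1834 in HGC-27. The mesenchymal markers VIM, CDH2, ZEB1 and FN1 summed to 130 and 154 counts in AGS and to 43866 and 38441 in HGC-27. Most of the HGC-27 sum was VIM, with 39235 counts in the control library and 34138 in the estradiol library. ZEB1 and FN1 were also higher in HGC-27, but CDH2 was not. Its counts were 5 for AGS control, 11 for AGS estradiol, 4 for HGC-27 control and 0 for HGC-27 estradiol. The 3 fibroblast markers COL1A1, DCN and LUM were all detected in HGC-27 (48966 and 43943 counts in sum), whereas AGS had 317 and 289 counts, all of COL1A1. Leukocyte markers (PTPRC, CD3E and CD68) summed to 0 to 22 counts in each library and endothelial markers (PECAM1 and CDH5) to 0 to 8. The epithelial, mesenchymal and fibroblast sums separate the same libraries as the comparison of the lines. The part of these markers in the EIF3 differences was not tested.

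Levels of different genes were compared per length, as TPM, a length-normalised share of each library's transcripts computed from the counts and the gene length in the deposited table. EIF3I stood highest, at 307 ± 62.6 TPM (SD, n = 4 libraries), followed by EIF3A at 278 ± 47.5. The ranges of these 2 genes over the libraries overlapped, and both lay wholly above EIF3D (201 ± 16.05). EIF3D, EIF3E (195 ± 13.9) and EIF3G (183 ± 89.8) overlapped with their neighbours in this order, as EIF3G did with EIF3B (136 ± 14.8). EIF3H (102 ± 7.13) lay below EIF3B in every library. EIF3C (54.1 ± 19.7) and EIF3F (50.9 ± 6.93) overlapped, and EIF3CL was lowest at 7.06 ± 1.47 TPM. Each SD spans both lines and both treatments, and the order differed between the lines. EIF3G had 98.2 and 113 TPM in AGS, below EIF3B (144 and 152). In HGC-27 it had 258 and 264 TPM, above EIF3A (241 and 234) in both libraries and above EIF3I (262 and 249) in the estradiol library.

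The order depended on the length used. With the longest coding transcript in place of the deposited gene length, a choice made after the data were seen, EIF3E came first at 550 ± 35.8 TPM and EIF3G second at 419 ± 203, while EIF3I fell to rank 5 (264 ± 55.4) and EIF3A to rank 6 (216 ± 38.3). EIF3H, EIF3C, EIF3F and EIF3CL held ranks 7 to 10 under both lengths, at 120, 86.9, 46.2 and 5.13 TPM under the second. The copy EIF3CL was thus below every other member under both lengths. If reads that fit both copies were left out of the counts, the levels of EIF3CL, EIF3C and their sum are too low, and whether this was so was not tested. As counted, EIF3C stood below its PCI partners EIF3A and EIF3E in every library under the deposited length.

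**Figure D1:**
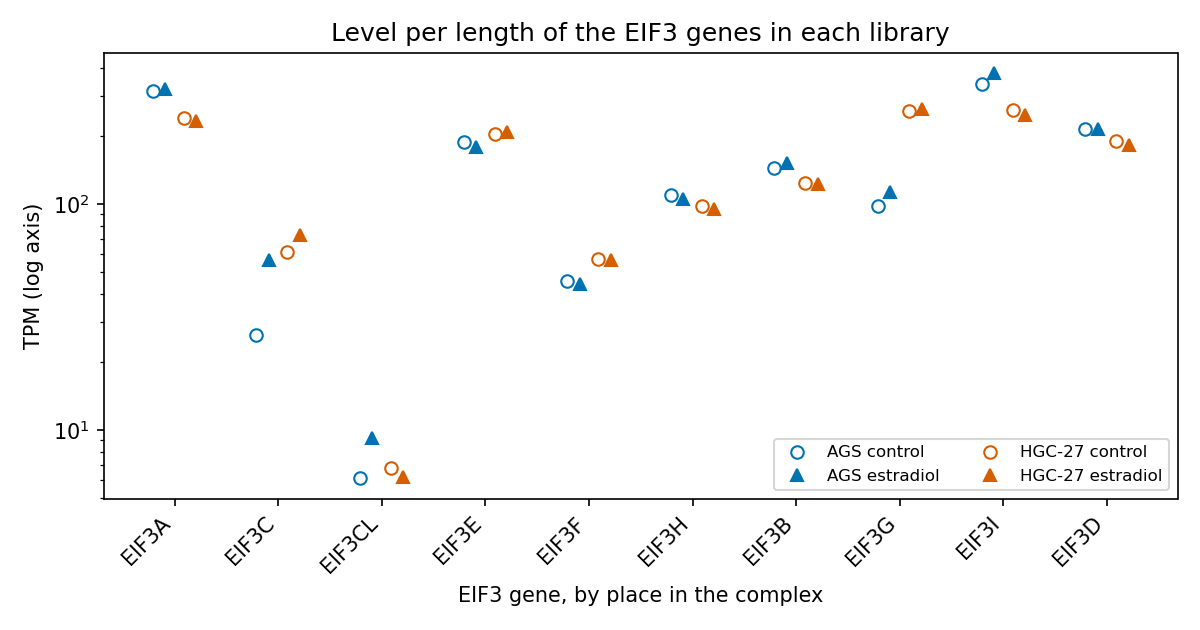
Level of each EIF3 gene in TPM on a log axis, from the deposited gene lengths, in the control (open circles) and estradiol (triangles) libraries of AGS (blue) and HGC-27 (orange). EIF3G is the gene whose lines lie farthest apart, at 98.2 and 113 TPM in AGS against 258 and 264 in HGC-27, and the EIF3C value of AGS control, 26.4 TPM, lies below its other libraries (56.2 to 72.7).

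The comparison of AGS with HGC-27 asked whether the lines carry EIF3 mRNAs at the same levels. All 10 members passed the low-count filter of the model and 9 were called (edgeR quasi-likelihood test with treatment in the model, Benjamini-Hochberg adjusted p under 0.05), against 77.2% of the 18278 genes tested. Of the 9, 5 were higher in AGS (EIF3A, EIF3B, EIF3D, EIF3H and EIF3I), against 35.7% of all genes, and 4 were lower (EIF3C, EIF3E, EIF3F and EIF3G), against 41.5%. A call in this comparison was thus common among all genes. The median size of the members' log2 differences, without sign, was 0.30, against 0.89 over all genes tested. The genes tested include many with low counts, and no set with counts like those of the members was compared. Values below are normalised read counts (CPM, the count scaled to the library's TMM-adjusted total), which compare 1 gene across libraries.

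Among the PCI subunits, EIF3A, the largest scaffold of the complex (chromosome 10, 119033670 to 119080823), had 673 CPM in the control and 682 in the estradiol library of AGS, and 512 and 490 in the HGC-27 libraries. Both AGS libraries lay above both HGC-27 libraries, with a log2 difference of 0.44 ± 0.05 (SE; edgeR adjusted p = 1.83e-16). EIF3E, a further PCI subunit of the core (chromosome 8, 108201216 to 108435333), had 339 and 320 CPM in AGS control and estradiol and 368 and 369 in HGC-27. The groups did not overlap, but the difference was small, at -0.16 ± 0.05 (edgeR adjusted p = 0.00239).

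EIF3C had 55.1 CPM in untreated and 117 in treated AGS cells, and 127 and 150 in untreated and treated HGC-27 cells. The AGS libraries lay below the HGC-27 libraries, and AGS control lay far below the other 3. AGS control also entered the estradiol call that chose EIF3C, so its test between the lines is not free of that choice. The log2 difference of AGS minus HGC-27 was -0.76 ± 0.06 (edgeR adjusted p = 4.57e-28), but DESeq2 gave an adjusted p of 0.0861 and edgeR with a robust prior, an alternative added after seeing the data, 0.222. Its size rested on the AGS libraries. With line alone in the model it was -0.24 without AGS control and -1.33 without AGS estradiol, and -0.80 and -0.55 without HGC-27 control and HGC-27 estradiol.

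EIF3CL had 5.62 and 8.50 CPM in AGS control and estradiol and 6.26 and 5.64 in HGC-27, from 141 to 235 counts per library. The lines overlapped, and the difference of 0.22 ± 0.19 was not called (edgeR adjusted p = 0.268). At such counts this does not show that the lines have the same level. Without AGS control the value was 0.51 and passed the test (edgeR adjusted p = 0.0159), and without AGS estradiol it was -0.085.

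Summed, EIF3C and EIF3CL had 60.7 and 126 CPM in AGS control and estradiol and 134 and 156 in HGC-27. The sum kept the order of EIF3C, with AGS control lowest, and differed by -0.70 ± 0.06 between the lines (edgeR adjusted p = 1.6e-26; DESeq2 0.105 and edgeR with a robust prior 0.224). It also rested on the AGS libraries, at -0.20 without AGS control and -1.25 without AGS estradiol. EIF3CL held 9.25% of the summed count in the AGS control (95% Wilson interval 7.92% to 10.8%) and 6.77% in treated AGS cells (5.98% to 7.65%). Its share was 4.68% in the HGC-27 control (4.06% to 5.39%) and 3.63% in treated HGC-27 cells (3.08% to 4.26%). The intervals of the lines did not overlap, and neither did those of the AGS control and treated AGS cells. These intervals cover counting error only, and the division of reads between the copies is uncertain.

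The MPN subunits went in opposite directions. EIF3F (chromosome 11, 7970251 to 8001862) had 129 and 125 CPM in AGS control and estradiol and 162 and 157 in HGC-27, which is lower in AGS by a log2 difference of -0.33 ± 0.06 (edgeR adjusted p = 1.24e-08). EIF3H (chromosome 8, 116642130 to 116766925) had 212 and 203 CPM in AGS and 188 and 180 in HGC-27, higher in AGS by 0.17 ± 0.05 (edgeR adjusted p = 0.00186). In both genes the libraries of a line lay close together and the lines did not overlap. EIF3H overlaps UTP23 on the opposite strand, which had counts of 683 and 800 (AGS) and 4075 and 3189 (HGC-27). Whether strand was kept in counting is not stated, so reads of such pairs cannot be told apart.

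The module of EIF3B, EIF3G and EIF3I held the largest difference of the list. EIF3G, an RNA-binding subunit (chromosome 19, 10115017 to 10119918), had 102 CPM in untreated and 118 in treated AGS cells, against 269 and 271 in HGC-27. Its HGC-27 libraries were 2.46-fold above its AGS libraries, a log2 difference of -1.30 ± 0.06 (edgeR adjusted p = 1.66e-76) that lay between -1.40 and -1.19 with each library left out. EIF3G took 4.37% and 4.84% of the counts of the 10 members in AGS and 11.5% and 11.8% in HGC-27, a measure that needs no scaling between libraries. P2RY11, which overlaps EIF3G on the opposite strand, had counts of 135 and 118 (AGS) and 285 and 339 (HGC-27). EIF3G had 2659 and 3263 (AGS) and 7792 and 6777 (HGC-27). P2RY11 was thus also higher in HGC-27, and its part in the EIF3G value was not tested. The partners of EIF3G in the module went the other way. EIF3I, a WD40-repeat subunit (chromosome 1, 32221928 to 32231604), had 175 and 195 CPM in AGS and 135 and 127 in HGC-27, a difference of 0.50 ± 0.06 (edgeR adjusted p = 2.75e-17). TMEM234, on the strand opposite to EIF3I, was also higher in AGS, with counts of 255 and 223 against 68 and 53 in HGC-27, and its part in the EIF3I value was not tested. EIF3B, the scaffold of the module (chromosome 7, 2354086 to 2380745), had 388 and 409 CPM in AGS and 334 and 325 in HGC-27, a difference of 0.27 ± 0.05 (edgeR adjusted p = 2.7e-07). EIF3D, the cap-binding subunit (chromosome 22, 36510850 to 36529436), had 261 and 260 CPM in AGS and 232 and 220 in HGC-27, a difference of 0.20 ± 0.05 (edgeR adjusted p = 0.000169). EIF3A, EIF3B, EIF3D, EIF3E, EIF3F, EIF3G, EIF3H and EIF3I were called in the same direction in each of the 13 fits run for this comparison, in which the largest adjusted p was 0.0469, for EIF3E without AGS estradiol.

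**Figure D2:**
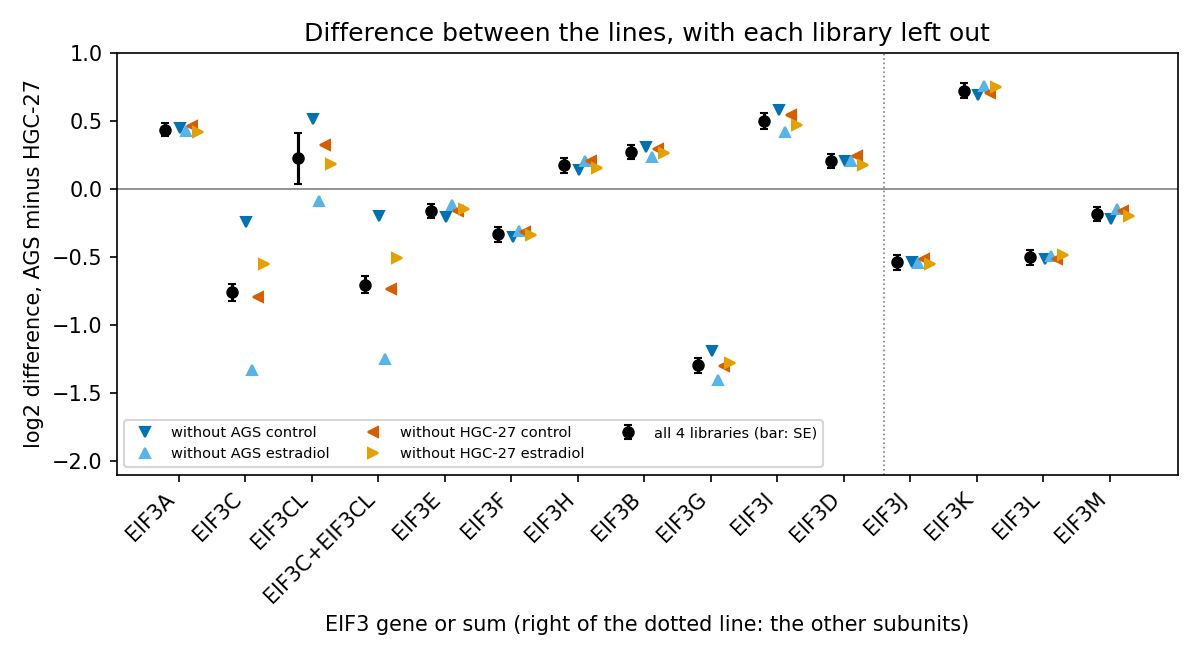
Log2 difference of AGS minus HGC-27 for each EIF3 gene and for the sum of EIF3C and EIF3CL (black, bars are SE from the fit of 4 libraries), beside the value with each library left out and line alone in the model. Most genes kept within 0.2 of their value, while EIF3C spread from -1.33 to -0.24 and EIF3CL crossed 0; the 4 subunits right of the dotted line are not members of the list.

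The 4 remaining subunits of the complex were measured for comparison and were also split. EIF3K, a small core subunit, was higher in AGS (4971 and 5054 counts in AGS control and estradiol against 3238 and 2865 in HGC-27; log2 difference 0.72 ± 0.06). EIF3J, which is loosely bound to the complex, was lower (-0.54 ± 0.05), as were the core subunits EIF3L (-0.50 ± 0.05) and EIF3M (-0.19 ± 0.05). All 4 were called by edgeR, against 77.2% of all genes tested. Of 35 initiation factors outside EIF3, 19 were called higher in AGS, 11 were called lower and 5 were not called. Over all genes tested, 35.7% were called higher and 41.5% lower. The median log2 difference of the factors was 0.17, against -0.10 over all genes tested. The largest called differences at a mean count of at least 100 were EIF4E3, a cap-binding protein (1.95 ± 0.26), and EIF2B5, the catalytic subunit of the exchange factor of EIF2 (1.36 ± 0.06), on the higher side. On the lower side they were EIF5A2, a paralog of EIF5A (5 and 8 counts against 814 and 713 in HGC-27, -6.84 ± 0.23), and PDCD4, an inhibitor of EIF4A (-1.82 ± 0.08).

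The comparison of estradiol with control asked which mRNAs differ after 1 day of the hormone. Over both lines, 28 of 18278 genes were called by edgeR with the line as a block (0.153%), 21 of them higher (0.115%) and 7 lower (0.0383%). Of the 10 members EIF3C alone was called, higher with estradiol, and since that call led to the list nothing is read from its count. The calls depended on the tool, with 1 gene called by DESeq2 and 0 by limma-voom (490 at an unadjusted p under 0.05) or by edgeR without the line as a block (2 at an unadjusted p under 0.05). EIF3C was called in 5 of 9 fits, and not by DESeq2, by limma-voom, without the block or with the robust prior. The fitted log2 change of EIF3C was 0.63 ± 0.06 (SE) and that of the sum with EIF3CL 0.61 ± 0.06. These SEs rest mostly on the spread pooled over genes and do not measure how far apart the lines lay. The EIF3C log2 ratio was 1.09 for the AGS pair of libraries, against 0.23 for the HGC-27 pair. For the sum these ratios were 1.05 and 0.22. The fitted changes of the 8 members other than the copies ranged from -0.06 ± 0.05 (EIF3H) to 0.10 ± 0.05 (EIF3G). The median over the 10 members was -0.00099, and that over all genes tested -0.00072.

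Within each line there is 1 library per treatment and no replicate, so ratios are given with 95% counting intervals. In AGS cells EIF3C had 1432 counts in the control and 3237 in the estradiol library, a 2.12-fold ratio (log2 1.09, interval 1.00 to 1.18). In HGC-27 it had 3685 and 3746 counts, a 1.18-fold ratio (log2 0.23, interval 0.17 to 0.30). The estradiol call chose EIF3C, so its ranks are a description alone. It had rank 3 from the top of 10917 genes that averaged 100 counts or more in AGS, and rank 739 of 11663 in HGC-27. The estradiol library of AGS thus stood near the level of HGC-27 control, at 117 against 127 CPM.

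EIF3CL had counts of 146 and 235 in AGS control and estradiol (log2 ratio 0.60, interval 0.29 to 0.91) and 181 and 141 in HGC-27 (-0.15, interval -0.48 to 0.18). In AGS both copies, as counted, were higher in the estradiol library, so that the sum was as well, from 1578 to 3472 counts (2.07-fold, log2 1.05, interval 0.96 to 1.14). Since the division of reads between the copies is uncertain, their ratios are not separate observations. In HGC-27 the sum went from 3866 to 3887 counts in a library of lower depth (1.16-fold, log2 0.22, interval 0.15 to 0.28). The share of EIF3C in the counts of the 10 members was 2.36% (95% Wilson interval 2.24% to 2.48%) in untreated and 4.80% (4.65% to 4.97%) in treated AGS cells. In HGC-27 it was 5.46% (5.29% to 5.63%) and 6.53% (6.33% to 6.74%).

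The partners of EIF3C in the core did not show such ratios. EIF3A stood at a log2 ratio of 0.02 in AGS (interval -0.01 to 0.05) and -0.06 in HGC-27 (-0.10 to -0.03). EIF3E stood at -0.08 (-0.13 to -0.04) and 0.004 (-0.04 to 0.04), EIF3F at -0.04 in both lines with intervals that held 0, and EIF3H at -0.06 in both lines with intervals below 0. Of the module, EIF3G stood at 0.21 in AGS (0.13 to 0.28) and at 0.01 in HGC-27 (-0.04 to 0.06), EIF3I at 0.16 (0.10 to 0.22) and -0.09 (-0.16 to -0.02), and EIF3B at 0.08 (0.04 to 0.12) and -0.04 (-0.08 to 0.002). EIF3D stood at -0.003 (-0.05 to 0.05) and -0.08 (-0.13 to -0.03). The 8 members other than the copies lay between -0.08 and 0.21 in AGS and between -0.09 and 0.01 in HGC-27.

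In AGS 5 of the 10 members had an interval above 0 (EIF3B, EIF3C, EIF3CL, EIF3G and EIF3I) and 2 below (EIF3E and EIF3H), where 14.2% of all genes averaging 100 counts or more were above and 15.5% below. In HGC-27 only EIF3C was above, against 10.8% of genes, and 4 were below (EIF3A, EIF3D, EIF3H and EIF3I), against 14.6%. No more is read from these counts, since this contrast chose the list.

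**Figure D3:**
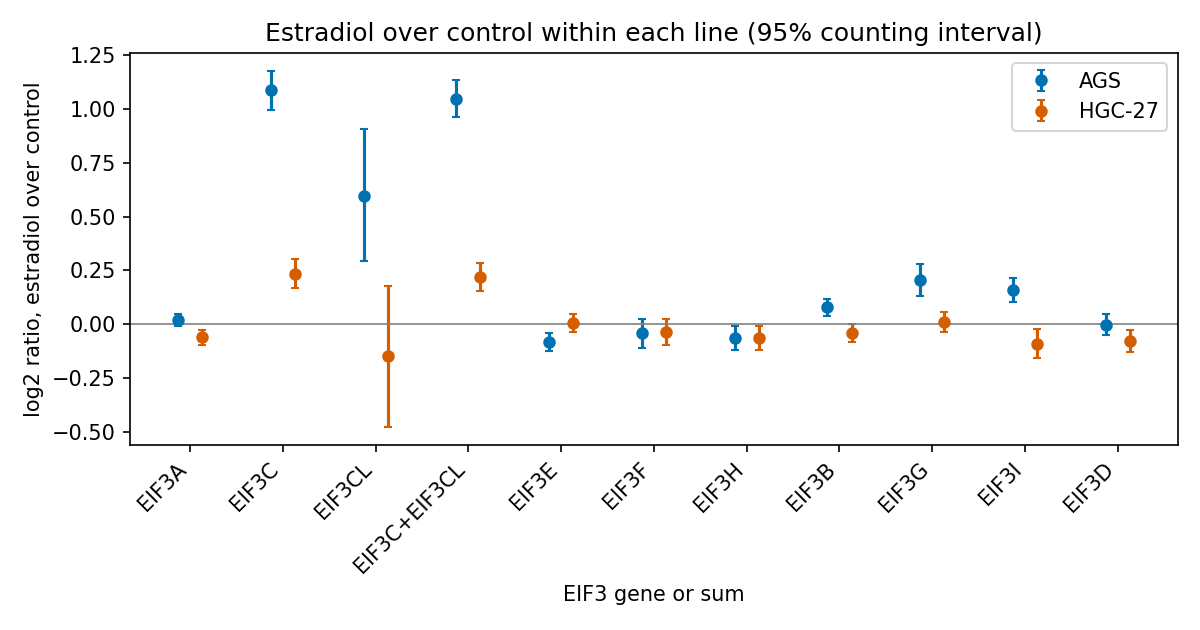
Log2 ratio of the estradiol over the control library within AGS (blue) and HGC-27 (orange) for each EIF3 gene and for the sum of EIF3C and EIF3CL, with 95% counting intervals that hold no variation between cultures. EIF3C and the sum stand at 1.09 and 1.05 in AGS and at 0.23 and 0.22 in HGC-27, while the members other than the copies lie between -0.09 and 0.21.

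**Figure D4:**
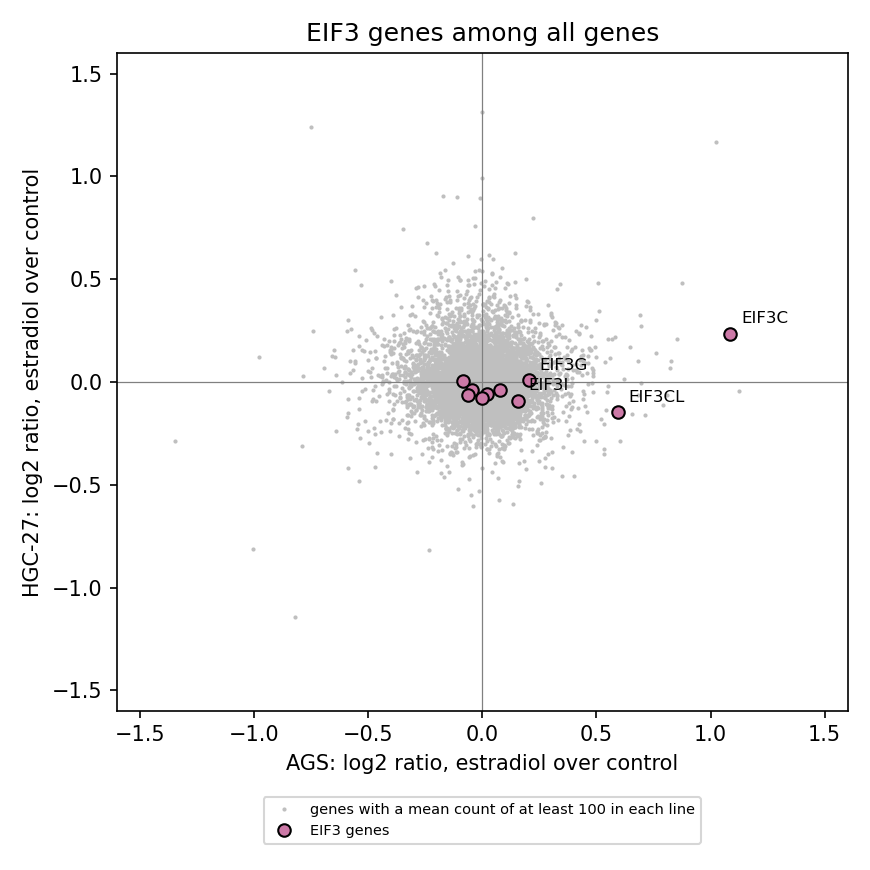
Log2 ratio of estradiol over control in AGS (horizontal) and HGC-27 (vertical) for 9867 genes averaging 100 counts or more in each line (grey), with the EIF3 genes marked. EIF3C lies near the right edge of the points, EIF3CL at 0.60 in AGS and below 0 in HGC-27, and the other members lie within the mass of genes.

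None of the other genes of the pathway were called with estradiol. Of the 4 remaining EIF3 subunits and the 35 other initiation factors, 0 passed edgeR's adjusted p, and 0 had an unadjusted p under 0.05. Over all 18278 genes tested, 28 passed the adjusted and 593 the unadjusted threshold, so no more is read from these counts. The fitted log2 changes of the 4 subunits ranged from -0.06 to -0.0003 and those of the 35 factors from -0.11 to 0.25, with a median of -0.01. In AGS, 0 of the 4 subunits had a counting interval above 0 and 2 had one below. Of 34 factors averaging 100 counts or more the interval was above 0 for 8 and below for 7. Among all genes with such counts it was above 0 for 14.2% and below for 15.5%. In HGC-27 it was above 0 for 2 of 34 factors and below for 10, against 10.8% and 14.6% of genes. Of the 4 subunits it was above 0 for 0 and below for 0. PDCD4 was the lowest of the factors over both lines (-0.11 ± 0.08) and EIF4A1 the highest (0.25 ± 0.18), both named for their place after their values were seen. The EIF4A1 value rests on low counts, 217 and 256 in AGS control and estradiol and 140 and 157 in HGC-27.

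The genes nearest to EIF3C were sought by the distance between pairs of log2 ratios, in AGS and in HGC-27, over the 9867 genes averaging 100 counts or more in each line, which is a likeness over 2 values. The nearest was MTCO1P12, a pseudogene of a mitochondrial gene (counts of 276 and 531 in AGS, 300 and 300 in HGC-27), at a distance of 0.23. It was followed by SMG1P5, also a pseudogene (187 and 434 counts, 208 and 174; distance 0.28), and MAP1B, a microtubule-associated protein (84 and 159 counts, 10696 and 9914; distance 0.29). For the sum of the copies they were MTCO1P12 (0.19), MAP1B (0.25) and the long noncoding RNA TRAM2-AS1 (0.27).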

How the data were processed

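The authors deposited raw counts per gene for 4 libraries, with each gene's length in bases. Reads were aligned with HISAT2 and counted with featureCounts, per the submitters' processing notes. Their versions were not given in the sources used here. These notes name hg18, but 57475 of the 58216 gene IDs found in GENCODE release 29 (GRCh38) start and end at the same bases there, the members among them, so coordinates are GRCh38.

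Members and lists were chosen with earlier results of these data known. The model was fitted in edgeR 4.0.16 under R 4.3.3, with line and treatment as terms, TMM scaling, filterByExpr, the quasi-likelihood test and Benjamini-Hochberg adjustment (threshold 0.05). It has 1 residual degree of freedom beside 396.9 prior ones, so errors rest on a spread pooled over genes. Library numbers mark the cell line and so pair the libraries, which correlated at 0.997 within each line (log2 CPM plus 1, across genes). Log2 ratios within a line used a prior of 0.5 counts and exact conditional binomial intervals of 95%. The fit was tested on simulated data. Alternatives were DESeq2 1.42.0, limma-voom 3.58.1, other scalings, filters and models, and each library left out.

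The genes named are the members, the 4 other EIF3 subunits, the 2 largest called differences in each direction among 35 initiation factors with a mean count of 100 or more, EIF3 pseudogenes with a mean count of 10 or more, and the 3 genes nearest to EIF3C or the sum. Cell type markers and some of the genes that overlap a member are named beside the results they touch, and EIF4A1 was named after its value was seen. Sequences are GENCODE release 29 transcripts.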

Additional observations from a re-analysis of the deposited data

Results flagged for a closer look

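For 5 members the estradiol ratio had opposite signs in the lines, and with 1 library per line and treatment the difference was not tested. The log2 ratio in AGS minus that in HGC-27 was 0.74 for EIF3CL (counts of 146 and 235 in AGS, 181 and 141 in HGC-27), 0.25 for EIF3I, 0.12 for EIF3B, 0.0799 for EIF3A and -0.0887 for EIF3E. Of these, EIF3I alone had counting intervals that lay wholly on opposite sides of 0.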

How the results depend on the processing

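The number of genes called with estradiol, 28, fell to 13 with library totals alone, 14 with at least 10 counts in every library, 1 with DESeq2, 17 with a robust prior in edgeR (added after seeing the data) and 0 with limma-voom (490 at an unadjusted p under 0.05). Without the replicate block, which pairs the libraries of a line, it was 0 (2 at an unadjusted p under 0.05), and the value of the sum of EIF3C and EIF3CL was 0.53. With a library left out, the model with the line as a block leaves no residual degrees of freedom for estradiol, and a fit with treatment alone was not run on 3 libraries. Between the lines, the sum was not called with DESeq2 (-0.71) or the robust prior (-0.70), and it ranged from -1.25 to -0.20 with each library left out. EIF3CL ranged from -0.085 (without AGS estradiol, opposite in sign to its value of 0.22) to 0.51 there. Calls between the lines numbered 10245 to 14357 over all fits, and 8 to 10 of the members. The median TPM of the members, 143, was 159 over protein-coding genes alone and 223 with the longest coding transcript. EIF3CL had the fewest counts of the members (141 to 235) and the widest counting intervals. The causes of these changes were not tested.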

Other observations

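The table held 11 processed pseudogenes of EIF3 genes, of which 3 had a mean count of at least 10 and 4 were at 0 in every library. EIF3FP3, which holds 6.91% of the 31-base stretches of EIF3F, had counts of 288 and 293 in AGS control and estradiol and of 449 and 358 in HGC-27. EIF3FP1 had counts of 11 and 20 (AGS) and 42 and 35 (HGC-27), and EIF3EP1 of 0 and 6 (AGS) and 21 and 16 (HGC-27). The counts of all 3 were lower in AGS, the direction in which EIF3F and EIF3E also differed. CDC37P1 and AC145285.4 overlap EIF3C on the opposite strand. CDC37P1 had counts of 1 and 8 (AGS) and 4 and 9 (HGC-27). AC145285.4 had 0 and 0 (AGS) and 2 and 6 (HGC-27), and the part of both in the EIF3C values was not tested. SNX8 overlaps EIF3B on the opposite strand, with counts of 839 and 838 (AGS) and 968 and 787 (HGC-27). NANOS1 overlaps EIF3A on the opposite strand, with counts of 95 and 100 (AGS) and 97 and 84 (HGC-27). The part of SNX8 and NANOS1 in the EIF3B and EIF3A values was not tested.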
